A study of Homo sapiens with 14 samples.

Results

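The 10 genes described here encode surface molecules by which a lymphoma cell meets other cells. The costimulatory ligands are CD80 (ENSG00000121594), CD86 (ENSG00000114013), CD58 (ENSG00000116815) and CD83 (ENSG00000112149), the checkpoint ligands are CD274 (ENSG00000120217, PD-L1) and PDCD1LG2 (ENSG00000197646, PD-L2), and the adhesion molecules are ICAM1 (ENSG00000090339), VCAM1 (ENSG00000162692), CD44 (ENSG00000026508) and CDH1 (ENSG00000039068). A ChIP-seq region counted as a member when the study had assigned it to one of these Ensembl genes as the closest gene or the closest transcription start site (TSS). This rule, which uses no binding value, took 56 of the 14865 regions in the union of the peaks of all 4 subunits. Of these, 44 were assigned by both criteria, 7 by the TSS only and 5 by the gene only. A single region was shared, with CD274 as its closest gene and PDCD1LG2 as its closest TSS.

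The regions were mapped in L1236, an established Hodgkin lymphoma cell line with constitutive NF-κB activity, and no treatment is named. Chromatin was precipitated in 2 replicates each with a goat antibody to p50 (sc-1190), rabbit antibodies to RelA (sc-372) and RelB (sc-226), and, for p52, with a mouse antibody in 1 replicate and a rabbit antibody in the other, both from Millipore. Input DNA was sequenced in 6 libraries as the background. All libraries came from 1 cell line in 1 state, so the values compare antibodies and sites and not conditions, and expression of the genes was not analysed here. The study's methods call the replicates biological, and the labels name no separate cultures. A subunit is described as called in a region where the study listed its peak there, at thresholds of 0.05 for the irreproducible discovery rate between replicates (IDR) and the false discovery rate (FDR). Calls, fold enrichments and read counts were made on merged replicates. They therefore carry no replicate error, and no test across samples was possible. The union held 1654137 p50, 1810792 p52, 315151 RelA and 470788 RelB reads, of which the member regions held 6990, 10037, 1074 and 1990.

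NF-κB acts as dimers of p50, p52, RelA, RelB and c-Rel that bind κB sites in DNA. RelA and RelB carry a transactivation domain, whereas p50 and p52, the processed forms of p105 and p100, do not. CD80 and CD86 engage CD28 and CTLA-4 on T cells, CD58 binds CD2, and PD-L1 and PD-L2 bind the inhibitory receptor PD-1. ICAM1 binds the integrin LFA-1, VCAM1 binds the integrin VLA-4, CD44 binds hyaluronan, and CDH1 (E-cadherin) joins epithelial cells. Hodgkin cells are known to express CD80, CD86, CD83, PD-L1 and ICAM1, and VCAM1 and ICAM1 promoters are textbook NF-κB targets in endothelial cells.

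In 4 of the genes, VCAM1, ICAM1, CD83 and CD58, a region lay over the gene's own TSS as listed by Ensembl. Their promoters are therefore shown here beside that of CD274, which had no region over its TSS. The RefSeq table on GRCh38.p14 held a promoter for 8 of the 10 genes in 10 windows, since CD86 and CD83 have an additional start, and none for CDH1 and PDCD1LG2. Each line gives the 250 bases before the RefSeq TSS, 5′ to 3′ on the gene's strand. Motifs were searched in these and in the 50 bases after the TSS, which are not printed, for members and all promoters alike. The κB consensus was GGGRNNYYCC, where R is A or G, Y is C or T and N is any base. Capitals mark bases that match, on either strand, this consensus, its TT-centred variant (GGG, any base, TT, any base, CCC) or GGANNNTCC. The last 2 motifs, which can overlap the κB consensus, were chosen after the promoters had been seen. The windows lie at chr1:100719492-100719741 (plus strand) for VCAM1, chr6:14117522-14117771 (plus) for the downstream start of CD83, chr19:10270870-10271119 (plus) for ICAM1, chr9:5450292-5450541 (plus) for CD274 and chr1:116571027-116571276 (minus) for CD58.
VCAM1: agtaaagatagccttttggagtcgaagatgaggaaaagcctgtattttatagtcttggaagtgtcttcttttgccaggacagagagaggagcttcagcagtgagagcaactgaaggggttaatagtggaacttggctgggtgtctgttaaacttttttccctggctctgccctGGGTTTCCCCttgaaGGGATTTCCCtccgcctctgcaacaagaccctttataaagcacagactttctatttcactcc
CD83: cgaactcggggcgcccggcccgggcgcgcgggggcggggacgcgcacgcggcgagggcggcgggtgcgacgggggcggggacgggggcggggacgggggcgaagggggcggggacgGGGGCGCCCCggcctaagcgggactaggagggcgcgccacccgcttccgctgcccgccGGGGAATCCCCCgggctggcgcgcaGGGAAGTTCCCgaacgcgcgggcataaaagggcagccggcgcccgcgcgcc
ICAM1: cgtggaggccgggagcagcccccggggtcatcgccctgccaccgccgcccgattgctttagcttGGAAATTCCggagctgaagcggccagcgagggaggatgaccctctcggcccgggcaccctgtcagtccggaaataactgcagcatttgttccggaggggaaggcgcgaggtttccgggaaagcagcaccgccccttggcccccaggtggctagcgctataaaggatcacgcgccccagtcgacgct
CD274: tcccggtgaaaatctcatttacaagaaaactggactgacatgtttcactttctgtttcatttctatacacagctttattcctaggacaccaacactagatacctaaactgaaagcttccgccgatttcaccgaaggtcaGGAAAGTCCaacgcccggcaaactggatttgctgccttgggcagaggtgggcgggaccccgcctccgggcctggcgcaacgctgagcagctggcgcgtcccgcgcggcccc
CD58: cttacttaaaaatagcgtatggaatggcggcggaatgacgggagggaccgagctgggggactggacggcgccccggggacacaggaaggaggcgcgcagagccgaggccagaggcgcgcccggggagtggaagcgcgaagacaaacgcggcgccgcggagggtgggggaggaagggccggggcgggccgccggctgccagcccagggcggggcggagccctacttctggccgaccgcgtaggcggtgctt

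The κB consensus was found in 3 of the 10 windows, against 11.3% of all 35116 promoters in the table. VCAM1 held GGGATTTCCC at positions -62 to -53 from the TSS, and the related GGGTTTCCCC at -77 to -68 matched the TT-centred variant but not the consensus. The downstream CD83 start had 3 stretches with the κB consensus, the last at -51 to -41, and the downstream CD86 start had 1 stretch, at -82 to -72. ICAM1 held GGAAATTCC at -186 to -178 and CD274 held GGAAAGTCC at -111 to -103, both matches of GGANNNTCC only. The TT-centred variant was found in 1.68% of all promoters and GGANNNTCC in 9.32%. CD58 matched none of these motifs in its window, nor did CD80 and CD44. The AP-1 motif TGANTCA, present in 7.71% of all promoters, was in none of the 10 windows. A match describes these letters and not a bound site. The RefSeq starts could not be aligned with the hg18 regions described next, because no genome sequence of that build was used here.

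p52 was called in nearly every member region and RelA in a single one. p52 was called in 54 of 56 regions (96.4%, exact 95% binomial interval 87.7% to 99.6%), against 73.3% of the whole union. p50 was called in 43 (76.8%, 63.6% to 87.0%), close to the 73.8% of the union. RelB was called in 18 (32.1%, 20.3% to 46.0%), against 26.8%, and RelA in 1 (1.79%, 0.0452% to 9.55%), against 3.31%. Thus only the interval for p52 lay wholly above the union's share. Intervals cover counting error over regions only, and neighbouring regions of 1 gene are not independent.

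By combination, p50 with p52 was the most frequent pattern, with 23 regions (41.1%, 28.1% to 55.0%), against 31.8% of the union. It was followed by p50, p52 and RelB with 17 regions (30.4%, 18.8% to 44.1%), against 17.1%, and by p52 alone with 13 (23.2%, 13.0% to 36.4%), against 19.8%. p50 alone was called in only 2 regions (3.57%, 0.435% to 12.3%), against 21.2%, and all 4 subunits in 1, against 2.35%. With an IDR below 0.001 the share of p50, p52 and RelB was 19.1% of 47 regions (9.15% to 33.3%), against 12.9% of all regions. Under that setting p50 alone had 6.38%, against 21.7%, and p52 alone 34.0%, against 21.1%. For p50 with p52 it was 38.3%, against 37.6%. RelB or RelA was called without both p50 and p52 in 0 of 56 member regions (interval up to 6.38%), against 7.59% of the union. The low share of p50 alone was also seen away from start sites. Beyond 1 kb of a TSS, p50 alone was called in 2 of 51 member regions (3.92%, 0.478% to 13.5%) and in 16.5% of all such regions, and p52 alone in 25.5% and 23.6%. Conversely, 41 of the 43 p50 regions were also called for p52 (95.3%, 84.2% to 99.4%), against 69.6% in the union.

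Most member regions lay away from the Ensembl start sites to which distances are given. A TSS was overlapped by 5 regions (8.93%, 2.96% to 19.6%), against 16.5% of the union, and 13 (23.2%) lay within 5 kb of a TSS, against 29.4%. A gene was touched by 34 regions (60.7%), against 58.0%. Whether these positions are exons or introns is not given, since the file lists only distances. Width had a median of 987.5 bp, against 863 bp.

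**Figure D1:**
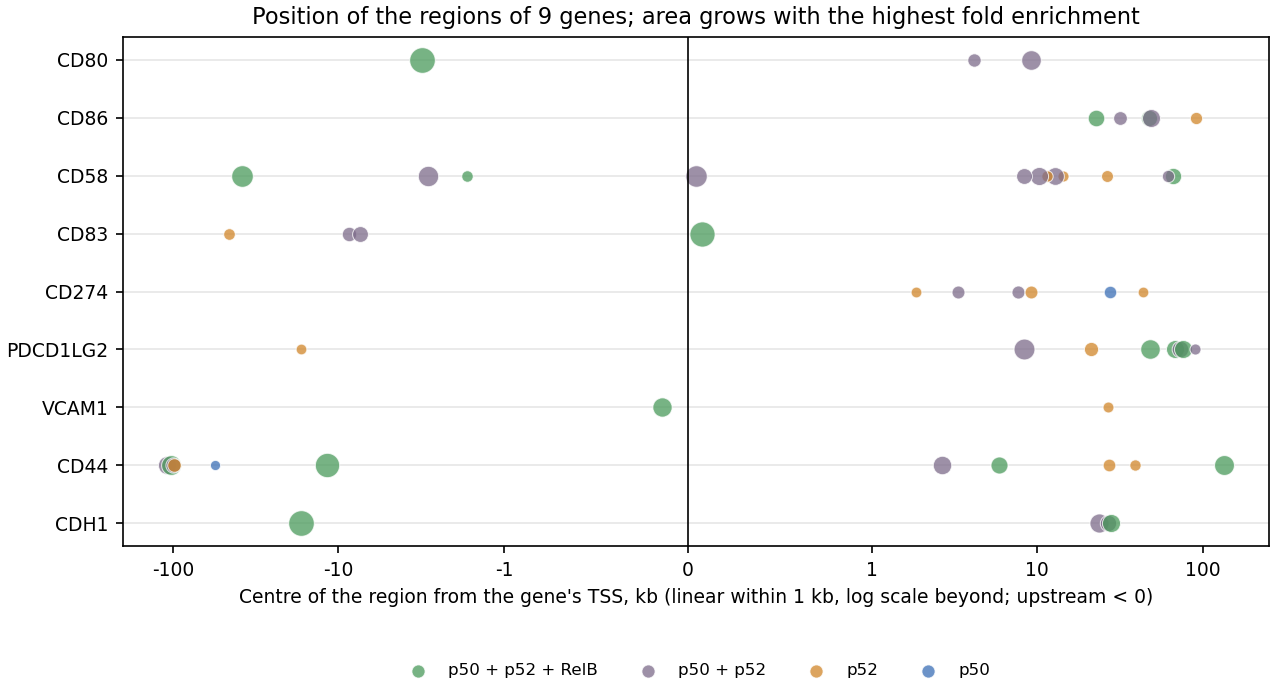
Distance of each region's centre from the TSS of its gene in kb, linear within 1 kb and logarithmic beyond, for the 9 genes whose TSS follows from the listed distances. Colour gives the subunits called and the area grows with the highest fold enrichment. Regions over this TSS are seen at CD58, CD83 and VCAM1, whereas CD80, CD86, CD274, PDCD1LG2, CD44 and CDH1 have none within 1 kb of it. Additional RefSeq starts, as of CD86 and CD83, are not drawn. The region shared by CD274 and PDCD1LG2 is drawn in both rows.

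Fold enrichment, that is ChIP over input at a peak's summit after merging replicates, was higher for p52 in these regions than across the union. Its median was 24.8 over the 54 called members (range 9.42 to 67.0), against 17.2 over all called p52 regions, a log2 difference of 0.52. When only regions assigned by the closest gene were kept, this difference was 0.24. For p50 the median was 17.95 (8.36 to 65.4), against 16.8, a log2 difference of 0.09, which became 0.25 with the closest gene only, so that under this setting p52 no longer exceeded p50. For RelB it was 10.8 (4.49 to 30.4), against 9.08, a log2 difference of 0.25. Of the p52 members 33 of 54 lay above the union median, of the p50 members 23 of 43 and of the RelB members 12 of 18.

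**Figure D2:**
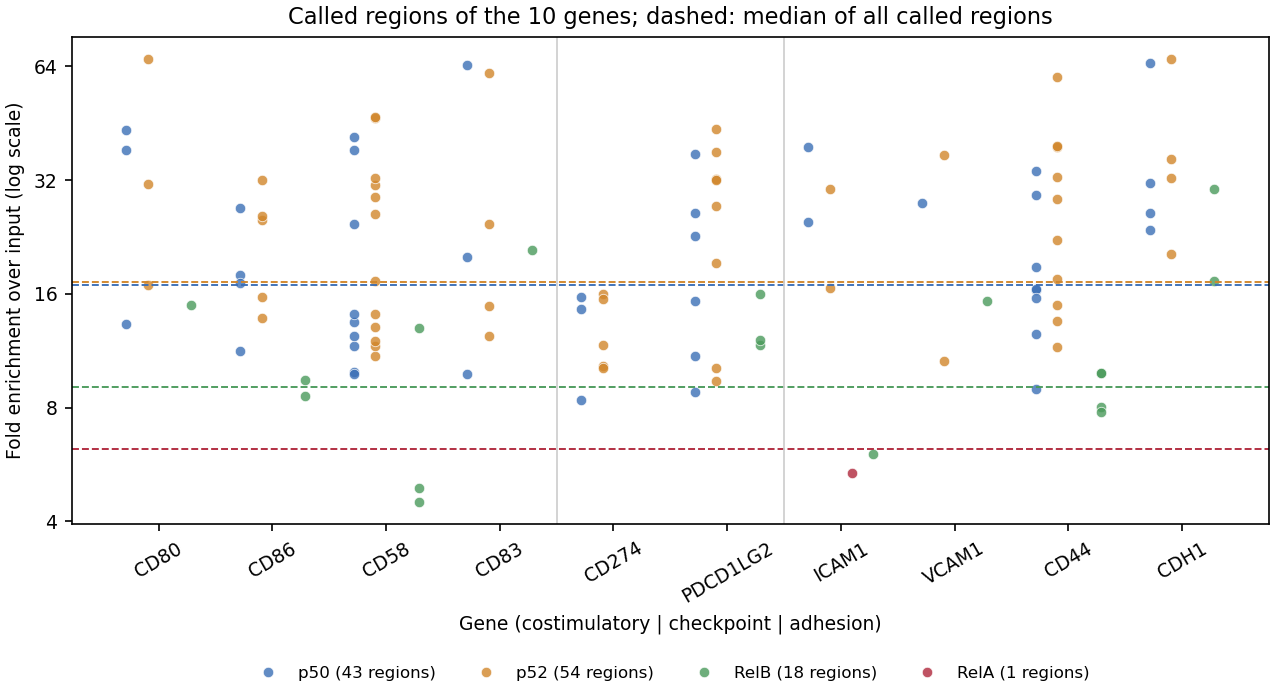
Fold enrichment over input (log axis) of every called region of the 10 genes, 1 point per region and subunit, from merged replicates. Dashed lines are the medians of all called regions of a subunit. CD274 stays below the p50 and p52 medians in all its regions, while CD80, CD83, CD44 and CDH1 each have a p52 point above the value of 60.

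The replicates could be compared only through their 2 signal values, the score per replicate that entered the reproducibility analysis. The file does not name the replicate of each, so they are named first and second here, and for p52 it is not known which antibody each stands for. For p52 the medians over the members were 314 and 661, against 215 and 416 over the union, and 30 of 54 regions were above the union median in both. For p50 they were 458 and 362, against 380 and 327. Both signal values therefore placed the members higher than the union for p50 and p52. For RelB they did not, with 120 and 454 in the members against 166 and 299 in the union. The log2 difference was thus -0.46 by the first value and 0.61 by the second, so that no direction can be given for RelB strength. The second RelB value was the higher in 17 of 18 member regions, against 72.8% of all RelB regions.

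**Figure D3:**
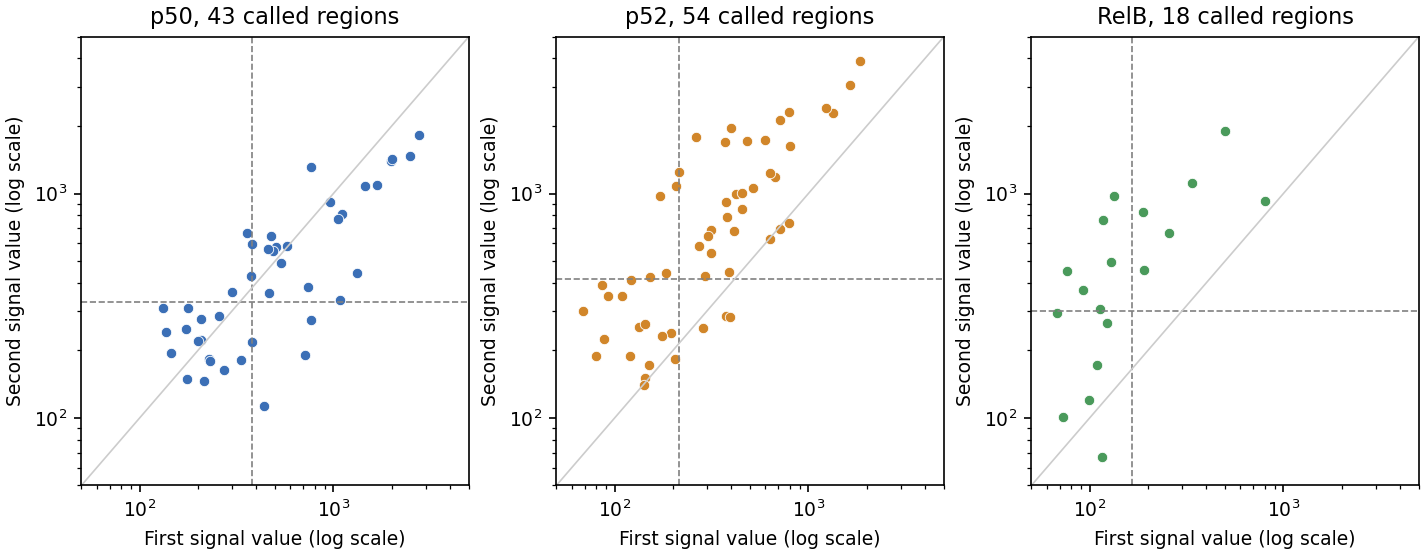
First against second signal value of each called member region, both on log axes, for p50, p52 and RelB. Dashed lines mark the union medians and the grey line equality. For p52 and RelB 46 of 54 and 17 of 18 points lie above the line of equality, against 90.9% and 72.8% of all called regions.

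Among the costimulatory ligands, all 24 regions were called for p52 and 19 for p50, and 7 for RelB. CD80 (chromosome 3, hg18) had 3 regions, each with p50 and p52. The strongest lay just upstream of the gene, from 120763804 to 120764788, at -2633 bp from the TSS (negative distances lie upstream), and carried p50, p52 and RelB calls at fold enrichments of 43.4, 67.0 and 14.9. This was the highest p52 fold enrichment of any member, and 145 of the 14865 regions, itself included, had at least as much. The signal values were 1985 and 1391 for p50, 1837 and 3917 for p52, and 188 and 825 for RelB. In this region the p50, p52 and RelB summits lay at -3060, -3075 and -3079 bp, within 19 bp of each other. The other CD80 regions, inside the gene at 3846 and 8615 bp, had p52 fold enrichments of 16.9 and 31.3 and no RelB call.

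CD86 (chromosome 3), the other ligand of CD28, had 5 regions, of which the nearest lay 21645 bp downstream of its Ensembl TSS. Its strongest region, from 123304812 to 123306444, lay inside the gene at 47901 bp and was dominated by p52, with a fold enrichment of 32.1 against 11.3 for p50. The p52 signal values of this region were 214 and 1242, so that its strength by p52 came from the second value. The region next to it, at 46830 bp, had 17.1 for p50, 25.7 for p52 and 9.45 for RelB. That nearest region, from 123278556 to 123280587, had 26.9 for p50, 25.0 for p52 and 8.59 for RelB. RefSeq gives CD86 an additional downstream start, the 2 promoter windows beginning at 122055112 and 122077534 on GRCh38.p14. Whether this region covers the downstream start was not tested, since the builds were not aligned. The last region, at 91084 bp and 25323 bp past the gene, was called for p52 alone (13.8).

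CD58, the ligand of CD2 on T cells, had 12 regions on chromosome 1, and only 51 of the 8450 genes with a region, itself included, had as many or more. The median gene had 1 region and the 90th percentile was 4. Each of the 12 was called for p52, 9 were called for p50 and 3 for RelB. The promoter region, from 116913933 to 116916341, had fold enrichments of 38.4 for p50 and 46.7 for p52, and its summits lay at -700 and -698 bp. Its signal values, 1319 and 441 for p50 and 261 and 1791 for p52, differed more between replicates than those of the CD80 region. The highest p52 fold enrichment (47.1) was in a region from 116951768 to 116954744, at -36584 bp, which touches another gene. There p50 was called with only 14.1, and its summit lay 1247 bp from that of p52, the only region of 41 shared regions in which they were more than 250 bp apart. Inside CD58 and downstream of its start region lay 6 further regions, of which 3 were called for p50, none for RelB and all for p52. In these the p52 fold enrichment ranged from 11.0 to 32.5.

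CD83, a marker of activated dendritic cells and B cells, held the strongest promoter region of this class. A region over its TSS, on chromosome 6 from 14225323 to 14226521, had fold enrichments of 64.7 for p50, 61.3 for p52 and 21.0 for RelB. The summits lay at 94, 66 and 89 bp from the TSS. The signal values were 2491 and 1477 for p50, 796 and 2299 for p52, and 805 and 926 for RelB, of which 805 was the highest first RelB value of the members. The other 3 CD83 regions were upstream, at -45089, -7882 and -7140 bp, with p52 fold enrichments of 12.4, 14.9 and 24.5 and no RelB call.

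The checkpoint ligands lie side by side on chromosome 9, and their 13 regions spread over 149 kb. CD274 had 6 of them, including the shared one, all of modest fold enrichment and none called for RelB or RelA. By pileup its p52 regions had 48, 45, 69, 81 and 49, in genomic order, against a union median of 54. No region lay over its TSS, and the nearest began at 1651 bp inside the gene and was called for p52 alone (10.3). The strongest, from 5447891 to 5448595 at 7332 bp, had fold enrichments of 8.36 for p50 and 16.0 for p52. Its signal values were 214 and 146 for p50, below both union medians, and 315 and 545 for p52, above both. A region from 5467540 to 5468166 was called for p50 alone (14.6), 1 of only 2 such regions among the members. It held 55 p50 and 20 p52 reads.

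PDCD1LG2 had 8 regions, all called for p52, 6 for p50 and 3 for RelB, and 214 of 8450 genes had as many or more. Its strongest region, from 5508007 to 5509784 at 7428 bp inside the gene, had 37.4 for p50 and 43.8 for p52 and no RelB call. The region from 5547900 to 5548935, at 47321 bp, reached 22.8 for p50, 38.1 for p52 and 15.9 for RelB, and the 3 summits lay within 11 bp. Signal values of the first of these were 2000 and 1420 for p50 and 1336 and 2280 for p52, and of the second 961 and 916, and 1229 and 2414. Beyond the 3′ end of the gene followed 4 regions, 2375, 7398, 10261 and 25097 bp from it. Their closest TSS was that of another gene, so that only 4 of the 8 regions remained when the closest TSS alone was used. In these 4, p52 fold enrichments were 32.2, 27.3, 32.1 and 9.42, and RelB was called in the first and the third with 11.7 and 12.1.

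The fold enrichments of both checkpoint genes rest on a higher local background. The pileup divided by the fold enrichment, a measure of the expected fragments at the summit, had a median of 4.65 for p52 in CD274 and 4.40 in PDCD1LG2, against 3.09 over the union (5th to 95th percentile 2.24 to 5.00). It was 4.08 over the 36 p52 regions within 5 Mb of the CD274 TSS and 3.26 over all p52 regions of chromosome 9. For p50 the values were 4.65 and 4.89, against 3.36. CD44, on chromosome 11, was at the other end of the genes with 2.40 for p52. A given fold enrichment thus stands for more fragments at CD274 than at CD44. What sets this background was not tested.

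Among the adhesion molecules, ICAM1 held the only region called for all 4 subunits. It spans the ICAM1 TSS on chromosome 19 from 10240940 to 10244039 and, with 3100 bp, was the widest member. Fold enrichments were 39.2 for p50, 30.3 for p52, 5.37 for RelA and 6.04 for RelB. The RelA summit lay 17 bp from that of p50, while the RelB summit lay 2027 bp away. The RelA call was a weak one, with signal values of 48.3 and 57.8 against union medians of 94.6 and 65.5, an FDR of 2.2e-05 and an IDR of 0.0064. For p50 the signal values were 767 and 1310 and for p52 172 and 980. It was lost when the FDR had to be below 1e-05 or the IDR below 0.001. The other ICAM1 region, from 10258159 to 10259298, touched the gene but lay over the TSS of another gene, and showed 24.7 for p50 and 16.6 for p52. ICAM1 was the only gene of the 10 in which p50 exceeded p52 in fold enrichment in every region.

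VCAM1 (chromosome 1) had 2 regions. The first lay over its TSS, from 100957222 to 100958267, and carried p50, p52 and RelB calls at 27.8, 37.2 and 15.3. The summits were at -56, -49 and -80 bp from the Ensembl TSS of hg18. From the RefSeq TSS of another build, the κB consensus match printed above lay at -62 to -53. The stretch at -77 to -68 matched the TT-centred variant only. The signal values were 1107 and 808 for p50, 803 and 1632 for p52, and 117 and 762 for RelB, so that RelB was above its union median by the second value only. This region held 133 p50, 214 p52, 21 RelA and 49 RelB reads. The other, at 26334 bp and 7034 bp past the gene, was called for p52 alone (10.6).

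CD44, the hyaluronan receptor, had 11 regions on chromosome 11, and 73 of 8450 genes had as many or more. None lay over its TSS. The strongest, from 35104427 to 35106046 at -10947 bp, carried p50, p52 and RelB calls at 29.3, 60.2 and 9.90, and its p52 fold enrichment was at the 97.6th percentile of all p52 regions. Its signal values were 357 and 668 for p50, 710 and 2117 for p52, and 113 and 305 for RelB. A group of 4 regions within 11.2 kb lay far upstream, at -108415, -101497, -99634 and -97834 bp, with p52 fold enrichments of 32.6, 39.2, 22.3 and 17.5. A different gene was closer to these, and with the closest gene alone CD44 kept 6 of its 11 regions. The region at -55139 bp, from 35061230 to 35061854, was called for p50 alone (8.98) with 42 p50 and 48 p52 reads, and one at 133290 bp, inside another gene, reached 39.5 for p52. Inside CD44 the pattern varied. The region at 2160 bp had 33.8 for p50 and 13.6 for p52, and those at 27014 and 38398 bp were called for p52 alone.

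CDH1 (chromosome 16), an epithelial cadherin, had 4 regions and the highest p50 and RelB fold enrichments of the members. CDH1 also led the members in p50 pileup (198) and both p50 signal values. For RelB it led in pileup (73), second signal value (1897) and reads per kb (143). It did not lead by every measure. The upstream CD80 region held 314 p50 reads per kb against 198, and the first RelB signal value was highest at CD83. The region at -16100 bp, from 67311237 to 67312596, reached 65.4 for p50, 66.9 for p52 and 17.3 for RelB, and only 49 of all regions, itself included, had as high a p50 fold enrichment. Its signal values were 2781 and 1816 for p50 and 1633 and 3058 for p52. The remaining 3 regions lay close together inside the gene, between 23269 and 27448 bp from the TSS. The last of them had the highest RelB fold enrichment of the members (30.4), and 96 of all regions, itself included, had at least as much. Its RelB signal values were 498 and 1897, so that it was above the union median by both.

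The 56 regions differed in the balance of p52 and p50. Within a region, the p52 share of the p50 and p52 reads compares the same site in both merged libraries. It also depends on their depth, so that the 52.3% over all regions together serves as the reference. Its median was 60.5% over the members, with a range of 26.7% to 83.0%, against 51.8% over the union. Of the 56 members, 41 (73.2%) lay above that union median. The exact 95% interval lay above 52.3% in 31 regions, below it in 10 and across it in 15. This count was not made over all regions, so it has no reference. The balance was far from even across genes. CD44 had the highest summed share, 66.8% (64.9% to 68.6%), with 9 of its 11 regions above. ICAM1 had the lowest, 42.4% (39.4% to 45.4%), with both regions below, at 42.4% each. The same gene could hold both kinds, as CD44 at 2160 bp had 30.6% (23.6% to 38.4%) and at 27014 bp 83.0% (70.2% to 91.9%). CD58 had 6 regions above and 2 below.

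This balance also differed between regions over an Ensembl TSS and others. The 5 members over a TSS had a summed p52 share of 48.5% (46.6% to 50.4%) and the other 51 had 61.0% (60.2% to 61.8%). These intervals cover counting error of the pooled reads and not the spread between regions. Single regions ranged from 42.4% to 61.7% over a TSS and from 26.7% to 83.0% elsewhere. In the union the shares were 40.9% and 55.4%. The members were thus above the union in both classes, and only 1 of the 5 over a TSS, that of VCAM1, had its interval above 52.3%.

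**Figure D4:**
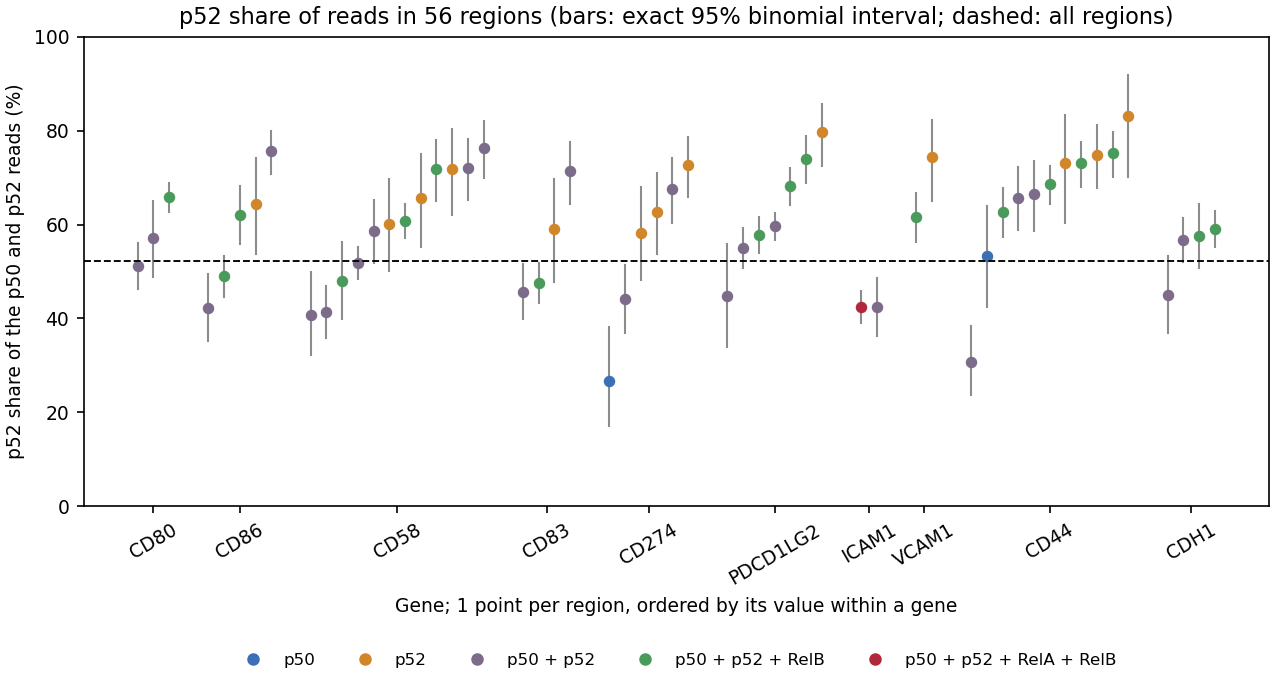
p52 share of the p50 and p52 reads in each of the 56 regions, ordered within a gene, with the exact 95% binomial interval, which covers counting error only. The dashed line is the 52.3% over all regions. CD44 has 9 of 11 intervals above the line and ICAM1 both below it.

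Calls and read densities did not always go together for RelA. The called ICAM1 region held 62 RelA reads, or 20 per kb, whereas the lowest twentieth of all called RelA regions ends at 22.3 per kb and their median is 38.4. This density is taken over the whole 3100 bp of the widest member, so that it also depends on width. Among the 55 members without a RelA call, 9 reached 22.3 per kb (16.4%), against 20.3% of all uncalled regions. The highest was the upstream CD80 region with 53 RelA reads (exact 95% Poisson interval 39.7 to 69.3), or 53.8 per kb. PDCD1LG2 had 4 of these 9 regions, including the one shared with CD274. Low counts limit what these regions can show, since the median uncalled member held 15.7 RelA reads per kb, against 15.3 in the union.

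For RelB the uncalled members held more reads than the uncalled regions of the union. Of the 38 members without a RelB call, 19 (50%) reached the lowest twentieth of called RelB regions, 22.5 per kb, against 27.3% of all uncalled regions. All 5 uncalled regions of PDCD1LG2 did, and 4 of 6 of CD274, the genes with the highest local background of the 10, whose part in these counts was not tested. The median density of all uncalled members was 21.8 per kb, against 16.5. Absence of a RelB call in these regions is therefore not absence of RelB reads. Reads per kb are not corrected for input.

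**Figure D5:**
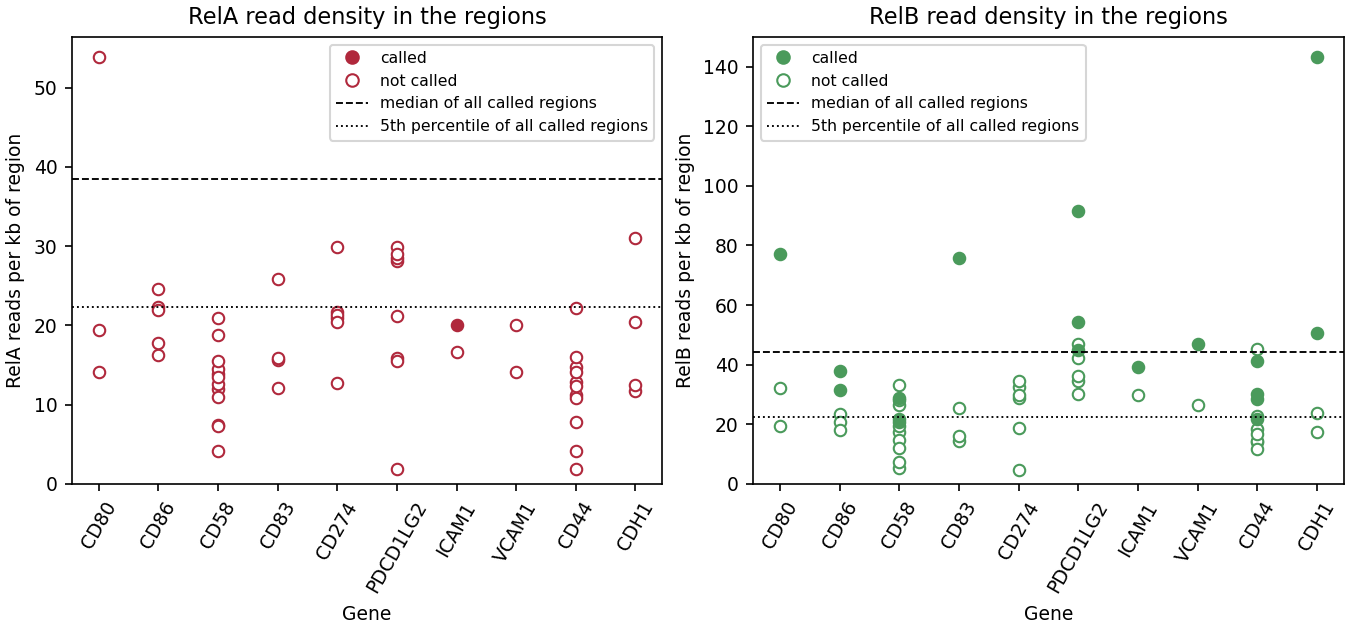
RelA (left) and RelB (right) reads per kb of region for every region of the 10 genes. Filled points are called and open points are not called, the dashed line is the median and the dotted line the 5th percentile of all called regions of that subunit. The only filled RelA point, the widest region, at ICAM1, lies below the dotted line, and an open CD80 point lies above the dashed line.

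Summits of different subunits lay close together in most member regions. The p50 and p52 summits were a median of 11 bp apart in the 41 regions with both, as in the union. In 40 (97.6%) they were within 250 bp, against 95.3% in the union. The p50 and RelB summits were within 250 bp in 16 of 18 regions, a share not computed for the union. The exceptions were the ICAM1 promoter and the distal CD58 region.

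Of 44 other genes of these classes, 20 costimulatory or checkpoint and 24 adhesion genes, 5 could be paired with an Ensembl identifier through the study's tables, which list genes picked for their regulation. All 5 had regions called for p50 and p52 and none had a RelA call. The study defines its target genes by regulation together with binding of p50 or p52. Calls of p50 or p52 in these genes can therefore follow from how they were picked. SLAMF1, a self-ligand of lymphocytes, had 9 regions and none called for RelB. TNFSF9, the ligand of CD137, had 6 regions, 3 with RelB, and a highest p52 fold enrichment of 59.4. CD40, TNFRSF14 and the adhesion gene ALCAM had 2 each.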

How the data were processed

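L1236 chromatin was profiled by ChIP-seq for p50, p52, RelA and RelB in 2 replicates each, with 6 input libraries. The authors used Bowtie (hg18), retained reads with a unique position, took out duplicates by SAMtools and reduced libraries to 10000000 reads. CASAVA is also named in the submitters' processing notes. They called peaks with MACS on single and merged replicates. Deposited counts are unnormalized reads per region, summed over merged replicates. The deposited fold enrichment is a ratio of ChIP to input at the summit, and the deposited pileup is the coverage signal there. The authors give the FDR as a q-value and the IDR (the irreproducible discovery rate between replicates) as a fraction, each with a threshold of 0.05, although every listed IDR was below 0.01. The deposited signal values are a score per replicate of unnamed scale. Distances are to genes and start sites of Ensembl version 54 within 1 Mb.

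The depth per library is listed by the study but is not in the file, so only reads in regions are given. Members and gene lists were chosen with earlier results of these data known. Shares carry exact Clopper-Pearson 95% intervals and read numbers exact Poisson intervals, for counting error only. No test was run, because calls come from merged replicates. All 10 genes are named, each with its strongest region and any region called for RelA, and, of the list genes with an identifier, those with a RelA call or the most regions. Other regions were added after their values were seen. Promoter sequences are from RefSeq (GRCh38.p14), and gene symbols of the members follow from their identifiers. The interval calculations, the start sites derived from distances and the assignment to genes were tested on simulated or made-up data. Alternatives were stricter IDR, FDR or fold enrichment, assignment by closest gene or TSS only, a limit of 100 kb, pileup or single signal values, and other windows. Coverage was not analysed here. Scripts ran in Python 3.11.15 with scipy 1.17.1, pandas 2.3.3, numpy 2.4.6 and matplotlib 3.10.9.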

Additional observations from a re-analysis of the deposited data

How the results depend on the processing

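Of 173 alternative values for 26 results, 153 stayed within the bounds set for them, 19 moved and 1 changed sign. An IDR below 0.01 changed nothing, since all listed values are below it, and these unchanged values are counted among the 153. An IDR below 0.001 was therefore added after seeing the data. It left 0 RelA and 10 RelB members, and log2 differences of the median fold enrichment of 0.29 for p50 and 0.40 for p52. An FDR below 1e-05 also left 0 RelA members, and under both settings the share with all 4 subunits was 0%. With the closest gene only, the difference was 0.25 for p50 and 0.24 for p52, and within 100 kb it was 0.37 for p52. Pileup gave 0.23 for p50. Single signal values in turn gave 0.15 to 0.27 for p50, 0.54 to 0.67 for p52 and -0.46 to 0.61 for RelB, the only change of sign. Regions called for both p50 and p52 had a p52 share of 58.1% against 58.9% for all members, and a window of 5 kb in place of 1 kb raised the regions near a TSS from 5 to 13. Region numbers moved for PDCD1LG2 (4) and ICAM1 (1) with the closest TSS only, for CD44 (6) with the closest gene only and for VCAM1 (1) with an IDR below 0.001. The shares of the other 4 patterns tested (p50 with p52, these with RelB, p52 alone and p50 alone) stayed within their intervals under these settings. RelA values rest on few reads, 1074 over all members, and library depth was not in the file. The study lists mapped reads and a quality rating per library, which were not used here. It rates the libraries of a RelA replicate as medium, below every other ChIP library. No paired analysis was possible because the values come from merged replicates and the signal values do not name theirs.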
